A study of Homo sapiens with 6 samples.

Results

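Fatty acid oxidation, ketogenesis and the genes that the nuclear receptor PPARA controls were examined in Huh7-R cells after treatment with fostamatinib. The genes were chosen by name, from a list of 37 symbols that covers regulators, fatty acid handling, the carnitine shuttle, mitochondrial and peroxisomal enzymes, ketone body enzymes and secreted products, and 36 of them were found among the 16305 genes measured. The expression of FGF21 was not analysed here. The list was chosen with earlier results of these data known. Huh7-R (Huh7SR in the labels) is a pool of cells grown out of Huh7, a line of human liver cancer, that became resistant to the multi-kinase inhibitor sorafenib under prolonged culture with it. According to the methods of the study, these cells were kept in 6 µM sorafenib, which was withdrawn several days before each experiment. Fostamatinib is known as an inhibitor of the kinase SYK, but the study did not detect SYK protein in Huh7 cells and proposes other targets. At another dose and time, the study found less phosphorylation of ERK, AKT, STAT3, EGFR and JNK with the drug. In both groups the cells were Huh7SR. Fostamatinib was given to 3 samples (2 µM, 24 h), and 3 received the vehicle DMSO, for which the labels give the same dose and time. All samples come from 1 resistant pool, and it is not stated that the triplicates were separate cultures, so that the p-values may measure only technical spread. RNA was taken from whole cultures, in which fewer cells of a kind and less RNA per cell cannot be told apart.

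Fatty acids enter the cell partly through carriers such as CD36, are bound by proteins such as FABP1, and are activated to acyl-CoA by the acyl-CoA synthetases (ACSL). CPT1A on the outer mitochondrial membrane, the translocase SLC25A20 and CPT2 on the inner membrane then carry long-chain acyl groups into mitochondria, where repeated rounds of dehydrogenation, hydration, a second dehydrogenation and thiolysis release acetyl-CoA. Peroxisomes shorten very long and branched chains with a separate set of enzymes. In the fasting liver, acetyl-CoA is turned into ketone bodies, and PPARA, with the coactivator PPARGC1A and the transcription factor CREB3L3, induces many genes of these steps.

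Promoters are given for the 3 genes of the list that changed at least 2-fold, passed the threshold of 0.05 and had groups that did not overlap, because PPARA and its partner RXR bind direct repeats of a hexamer spaced by 1 base (DR1). Each sequence is the 250 bases before the transcription start in RefSeq, on the strand of the gene, in GRCh38.p14. Capitals mark a match to the hexamer AGGTCA (or TGACCT on the other strand) or to the relaxed repeat AGGNCANAGGNCA, where N is any base.
CREB3L3, chr19:4153381-4153630, + strand: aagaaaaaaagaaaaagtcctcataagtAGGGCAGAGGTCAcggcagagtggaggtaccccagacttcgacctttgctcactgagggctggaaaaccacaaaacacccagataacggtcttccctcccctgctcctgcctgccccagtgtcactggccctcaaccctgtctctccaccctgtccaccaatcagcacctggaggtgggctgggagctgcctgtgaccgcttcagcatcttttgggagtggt
FABP1, chr2:88128063-88128312, - strand: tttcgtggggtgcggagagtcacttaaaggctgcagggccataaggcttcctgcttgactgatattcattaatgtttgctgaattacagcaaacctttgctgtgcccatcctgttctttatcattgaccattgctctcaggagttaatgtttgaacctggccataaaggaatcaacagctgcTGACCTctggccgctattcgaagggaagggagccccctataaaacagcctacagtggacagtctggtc
SLC25A20, chr3:48898883-48899132, - strand: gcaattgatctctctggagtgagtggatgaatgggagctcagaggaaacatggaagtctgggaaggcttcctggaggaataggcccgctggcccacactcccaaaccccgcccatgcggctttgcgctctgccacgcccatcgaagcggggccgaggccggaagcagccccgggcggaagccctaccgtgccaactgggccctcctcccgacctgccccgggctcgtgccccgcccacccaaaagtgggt

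The CREB3L3 promoter held 1 relaxed repeat, whose first base lies 222 bases before the start, and the FABP1 promoter a hexamer 68 bases before it, with another after the start. No match was found in the SLC25A20 window. In 300-base windows, which also take in the 50 bases after the start, the relaxed repeat occurred in 1 of the 32 listed genes with a RefSeq promoter and in 0.305% of 34796 promoters. The exact repeat AGGTCANAGGTCA occurred in 0 of these genes and in 0.0172% of promoters, and the hexamer in 3 of them (CREB3L3, FABP1 and ACSL5) and in 13.8% of promoters. DECR1, ETFDH, ACAA1, ACOX2 and EHHADH had no entry in the promoter set used and were not searched. The 32 genes searched include FGF21, whose expression was not analysed. Both strands were searched, and the hexamer is part of the longer motifs. Such matches describe the letters only. Over all genes, 7.13% passed the threshold with at least a 2-fold change, counted without the condition that the groups do not overlap. BDH1 also met this looser rule, but its groups overlapped.

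Of the 36 genes, 23 were higher and 5 lower after fostamatinib by limma, with Benjamini-Hochberg adjustment over all genes and a threshold of 0.05 on the adjusted p-value. Over all 16305 genes limma called 47.8%, namely 23.3% higher and 24.5% lower, against 63.9% and 13.9% of the 36 genes. Since the list was chosen with earlier results of these data known, this comparison is a description and not a test. The median log2 fold change of the 36 genes was 0.33, and that of all genes was 0.002. All 3 fostamatinib samples lay above all 3 DMSO samples for 20 of the 36 genes (26.8% of all genes) and below them for 5 (27.4% of all genes). With 3 samples against 3, an exact permutation test of a single gene cannot give a two-sided p below 0.10.

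**Figure D1:**
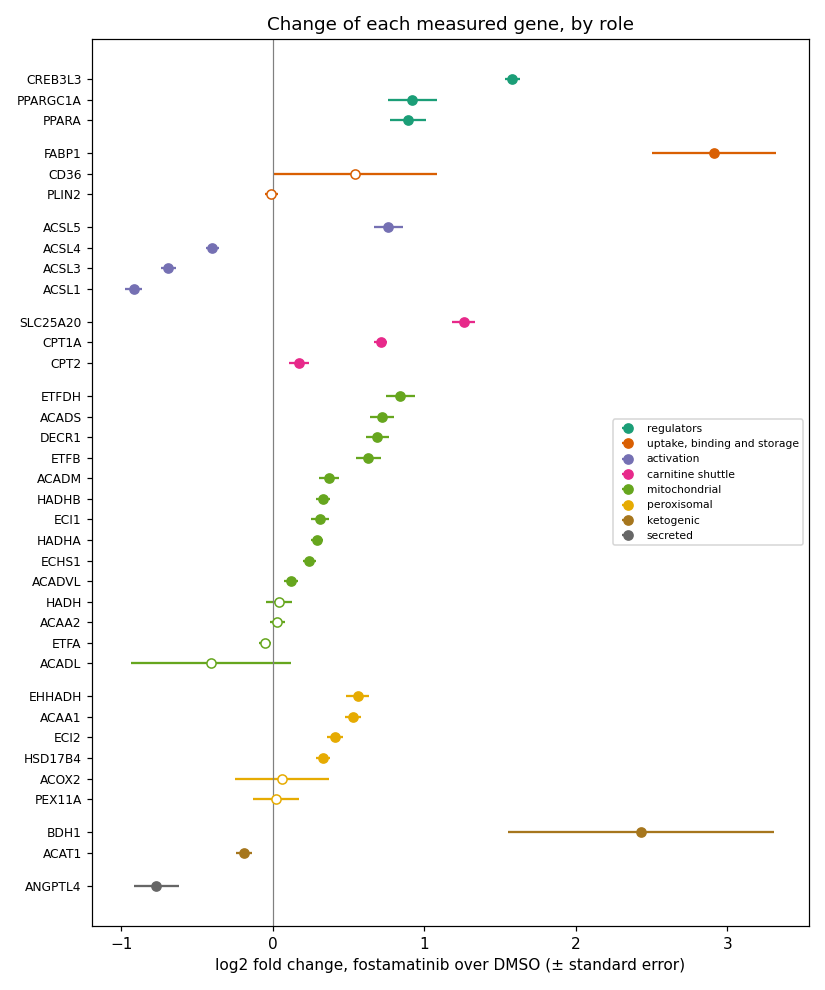
The x axis gives the log2 fold change of each of the 36 genes, fostamatinib over DMSO, with its standard error from limma, and the rows are grouped by role. Filled points have an adjusted p-value under 0.05 and open points do not: the regulators and the carnitine shuttle lie to the right of 0, and 3 of the 4 acyl-CoA synthetases to the left.

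The cells carried the hepatocyte markers that the label implies, though APOA1 was low with DMSO, at 20, 22 and 23 reads. All 11 hepatocyte markers examined (such as ALB, AFP, TF and HNF4A) were measured. Each of the 11 was higher after fostamatinib, against 23.3% of all genes. Their summed level was 5135 to 5474 CPM (reads scaled to a common library size) with DMSO and 6964 to 7373 CPM with fostamatinib. Of the markers of other cell types, 2 of 5 leukocyte, 1 of 4 endothelial and 4 of 5 fibroblast genes were measured. PTPRC, CD3E, CDH5, VWF, KDR and DCN were not among the genes measured. The summed level was 7.98 to 9.57 CPM against 5.51 to 5.96 for the leukocyte genes and 155 to 161 CPM against 121 to 129 for the fibroblast genes, DMSO against fostamatinib. Of the fibroblast genes, LUM, which makes up most of this sum, fell by 0.40 on the log2 scale and PDGFRB rose by 0.95, while COL1A1 and COL3A1 had log2 fold changes of 0.18 and 0.68 and did not pass the test. Of the leukocyte genes, ITGAM, which makes up most of their sum, fell by 0.59 on the log2 scale. CD14 had 2 to 7 reads per sample and did not pass the test. PECAM1, the endothelial gene, was at 6.13 to 6.96 against 8.76 to 9.93 CPM. Transcripts of the mitochondrial genome took 6.15% to 6.67% of the reads on measured genes with DMSO and 8.16% to 8.40% after fostamatinib. The part of these shifts in the results below was not tested. The reads on the measured genes numbered 13303451 to 15272737 per sample, and no library stood apart: differences between samples of a group were 1.65 to 3.74 times the counting variance, against 39.71 to 44.34 times between the groups.

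All 3 regulators rose, against 23.3% of all genes. In hg19 coordinates, CREB3L3 lies at chr19:4153628-4173051, PPARA at chr22:46546424-46639652. CREB3L3, a membrane-bound transcription factor of the liver that is released by proteolysis, was at 5.70, 5.71 and 5.79 log2 CPM with DMSO and at 7.29, 7.32 and 7.32 with fostamatinib. The fostamatinib values lay well above every DMSO value, at a log2 fold change of 1.58 (limma: standard error, SE, 0.048, adjusted p = 1.40e-24). PPARA, the receptor itself, was at 2.56, 2.84 and 2.79 log2 CPM with DMSO and at 3.57, 3.64 and 3.64 with fostamatinib, a log2 fold change of 0.89 (limma: SE 0.12, adjusted p = 8.05e-08). PPARGC1A, the coactivator, was at 1.79, 1.86 and 2.18 log2 CPM with DMSO and at 2.72, 3.09 and 2.77 with fostamatinib. Its groups were also apart, with a log2 fold change of 0.92 (limma: SE 0.16, adjusted p = 8.16e-06). Without the mean-variance trend used in the fit, the 3 calls held at larger adjusted p-values. These were 1.11e-04 for CREB3L3, 0.00153 for PPARA and 0.00781 for PPARGC1A (limma).

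The other receptors and coactivators of the family did not move in 1 direction. Of 5 such genes, 3 rose and 2 fell, while of all genes 23.3% were higher and 24.5% lower. RXRA, the obligate partner of the PPARs, rose by 0.56 on the log2 scale and PPARD by 0.42, while PPARG, the receptor best known from fat cells, had a log2 fold change of -0.65. PPARGC1B, the paralog of PPARGC1A, went from 197, 147 and 186 reads with DMSO to 78, 80 and 76 with fostamatinib, a log2 fold change of -1.07 (limma: SE 0.13, adjusted p = 1.59e-08). PPARGC1A and PPARGC1B thus had changes of opposite sign, each with its groups apart.

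**Figure D2:**
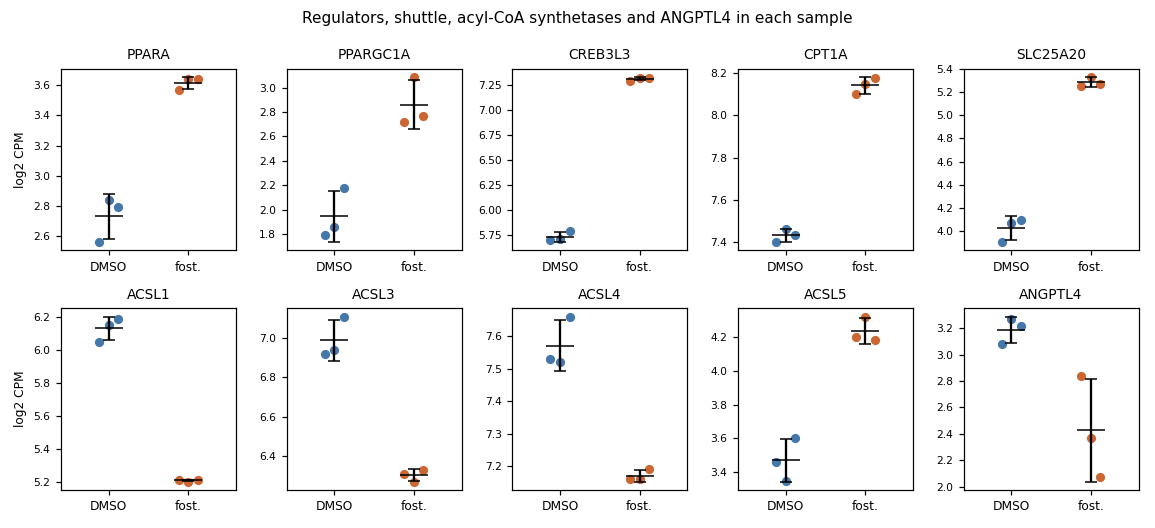
Each panel shows 1 gene, with log2 CPM on the y axis, the 3 DMSO samples in blue and the 3 fostamatinib samples in orange; bars are the mean ± SD. The groups are apart in all 10 panels, ACSL1, ACSL3, ACSL4 and ANGPTL4 being lower after fostamatinib and the others higher.

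The genes of fatty acid uptake, binding and storage gave 1 call of 3 (33.3%, against 47.8% of all genes in either direction). FABP1, the liver fatty acid binding protein, had 3, 6 and 2 reads with DMSO and 26, 32 and 23 with fostamatinib. Every fostamatinib sample was higher, and the log2 fold change was 2.91 (limma: SE 0.41, adjusted p = 2.30e-07). From the summed reads, the ratio was 7.84 (95% exact binomial interval 4.16 to 16.3, which covers counting error only). PLIN2, the coat protein of lipid droplets and a known PPARA target, was well covered and was at 7.55, 7.59 and 7.52 log2 CPM with DMSO and 7.59, 7.56 and 7.47 with fostamatinib. Its groups overlapped, with a log2 fold change of -0.01 (SE 0.042). CD36 had 3 to 7 reads per sample, and its log2 fold change of 0.54 (SE 0.54) did not pass the test.

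The 4 long-chain acyl-CoA synthetases were split, with 25.0% higher and 75.0% lower, against 23.3% and 24.5% of all genes. ACSL1, the main isoform of liver and itself a PPARA target, was at 6.05, 6.15 and 6.19 log2 CPM with DMSO and at 5.21, 5.20 and 5.21 with fostamatinib. All fostamatinib values lay below all DMSO values, with a log2 fold change of -0.92 (limma: SE 0.057, adjusted p = 1.02e-15). ACSL3, which sits on the endoplasmic reticulum and lipid droplets, fell by 0.69, and ACSL4, which prefers arachidonic acid, fell by 0.40 on the log2 scale. ACSL5, found on mitochondria and the endoplasmic reticulum, was at 3.46, 3.35 and 3.60 log2 CPM with DMSO and at 4.20, 4.32 and 4.18 with fostamatinib. It rose by 0.76 (limma: SE 0.096, adjusted p = 2.72e-08). The merged exons of ACSL5 share 3.48% of their length with ZDHHC6 on the other strand, which had a mean of 511 reads. Whether strand was used in counting is not stated. Counted per kilobase of exon, ACSL5 made up 6.48% ± 0.321 (SD, n = 3) of the 4 genes with DMSO and 15.1% ± 0.767 (SD, n = 3) with fostamatinib, and ACSL1 26.1% ± 0.902 and 18.9% ± 0.155. The summed level of the 4 genes was 383 to 426 CPM with DMSO and 277 to 281 CPM with fostamatinib.

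All 3 genes of the carnitine shuttle rose, against 23.3% of all genes. SLC25A20, the carnitine-acylcarnitine translocase, was at 3.91, 4.07 and 4.10 log2 CPM with DMSO and at 5.25, 5.33 and 5.27 with fostamatinib. The groups were far apart, with a log2 fold change of 1.26 (limma: SE 0.075, adjusted p = 3.53e-16). CPT1A, the rate-limiting entry enzyme, was at 7.40, 7.46 and 7.43 log2 CPM with DMSO and at 8.10, 8.15 and 8.18 with fostamatinib, a log2 fold change of 0.71 (limma: SE 0.040, adjusted p = 4.32e-17). CPT2, which rebuilds acyl-CoA in the matrix, rose by 0.17 (limma: SE 0.065, adjusted p = 0.0299), and its groups overlapped, at 5.27 to 5.49 log2 CPM with DMSO and 5.47 to 5.66 with fostamatinib. The call on CPT2 was lost without the mean-variance trend (adjusted p = 0.159, limma) and without DMSO replicate 1, fostamatinib replicate 1 or fostamatinib replicate 2 (adjusted p = 0.214, 0.0571 and 0.202, limma).

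CPT1A is inhibited by malonyl-CoA. Of the 3 genes that set malonyl-CoA, ACACB, the mitochondrial acetyl-CoA carboxylase, had 7, 8 and 6 reads with DMSO and 25, 27 and 15 with fostamatinib, a log2 fold change of 1.66 (SE 0.35). ACACA, the cytosolic carboxylase, had a log2 fold change of -0.12 (adjusted p = 0.0358, limma), a call that was lost without the trend and without DMSO replicate 2 or 3 or fostamatinib replicate 1 or 2 (adjusted p = 0.0539 to 0.198, limma). MLYCD, which degrades malonyl-CoA, had a log2 fold change of 0.18 that did not pass the test. Of the other carnitine enzymes, CRAT and CROT rose by 0.57 and 0.29 on the log2 scale, and CPT1B, CPT1C and SLC22A5 did not pass the test.

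Of the 14 mitochondrial oxidation genes, 10 rose, 0 fell and 4 did not pass the test. Thus 71.4% were higher, against 23.3% of all genes, of which 24.5% were lower. The median log2 fold change was 0.30 and the range -0.41 to 0.84. The largest rises were those of the electron acceptor ETFDH, which passes electrons on to ubiquinone, of the short-chain dehydrogenase ACADS and of DECR1, needed for unsaturated chains. ETFDH was at 3.44, 3.65 and 3.90 log2 CPM with DMSO and at 4.46, 4.52 and 4.51 with fostamatinib, and rose by 0.84 (SE 0.097). Its merged exons share 5.98% of their length with PPID on the other strand, and whether strand was used in counting is not stated. ACADS was at 4.23, 4.16 and 3.98 log2 CPM with DMSO and at 4.81, 4.92 and 4.80 with fostamatinib, and rose by 0.72 (SE 0.081). DECR1 rose by 0.69 (SE 0.074), and each of these 3 genes had its groups apart.

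Of the subunits of the electron transfer flavoprotein, 1 passed the test. ETFB rose by 0.63 on the log2 scale (limma: SE 0.080, adjusted p = 4.47e-08), while ETFA, its partner, was at 7.72, 7.70 and 7.77 log2 CPM with DMSO and 7.65, 7.71 and 7.68 with fostamatinib, with overlapping groups. The ratio of ETFB to ETFA, per kilobase of exon, was 0.119 ± 0.00225 (SD, n = 3) with DMSO and 0.191 ± 0.0146 (SD, n = 3) with fostamatinib, with no overlap. This ratio, like the shares of the ACSL genes above, was chosen after the values were seen and has no test. HADHA and HADHB, the subunits of the trifunctional protein, both rose, by 0.29 and 0.33 on the log2 scale (SEs 0.040 and 0.044). The difference between their changes was not tested.

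The medium-chain dehydrogenase ACADM rose by 0.37, the isomerase ECI1 by 0.31 and the hydratase ECHS1 by 0.24. The very-long-chain dehydrogenase ACADVL rose by 0.12 (limma: SE 0.046, adjusted p = 0.028), with overlapping groups. The call on ACADVL was lost without the trend (adjusted p = 0.184, limma) and without DMSO replicate 3, fostamatinib replicate 2 or fostamatinib replicate 3 (adjusted p = 0.167, 0.0976 and 0.11, limma). The dehydrogenase HADH and the thiolase ACAA2, which act late in each round, had log2 fold changes of 0.04 and 0.03 and did not pass the test. ACADL had 21 reads over the 3 DMSO samples and 16 over the 3 fostamatinib samples, a ratio of 0.811 with a 95% exact binomial interval of 0.395 to 1.63, so that no change was detectable at this depth. The summed level of the 14 genes was 1008 to 1013 CPM with DMSO and 1161 to 1190 CPM with fostamatinib.

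Of the 6 peroxisomal genes, 4 rose, 0 fell and 2 did not pass the test. Thus 66.7% were higher, against 23.3% of all genes, of which 24.5% were lower. The median log2 fold change was 0.37 and the range 0.02 to 0.56. EHHADH, the bifunctional enzyme and a classical PPARA target, was at 4.19, 4.31 and 4.31 log2 CPM with DMSO and at 4.86, 4.84 and 4.77 with fostamatinib. It rose by 0.56 (limma: SE 0.076, adjusted p = 1.43e-07). The thiolase ACAA1 rose by 0.53, the isomerase ECI2, which is also found in mitochondria, by 0.41 and the bifunctional enzyme HSD17B4 by 0.33, each with its groups apart. ACOX2, the oxidase of branched chains and bile acid precursors, was low, and its log2 fold change of 0.06 (SE 0.31) did not pass the test. PEX11A, a factor of peroxisome division that PPARA induces, was at 2.68, 2.82 and 2.74 log2 CPM with DMSO and 2.51, 3.19 and 2.60 with fostamatinib. These groups overlapped, and 1 fostamatinib sample lay above the others. The median changes of the mitochondrial and peroxisomal genes were thus 0.30 and 0.37 on the log2 scale, and the difference between these groups was not tested.

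**Figure D3:**
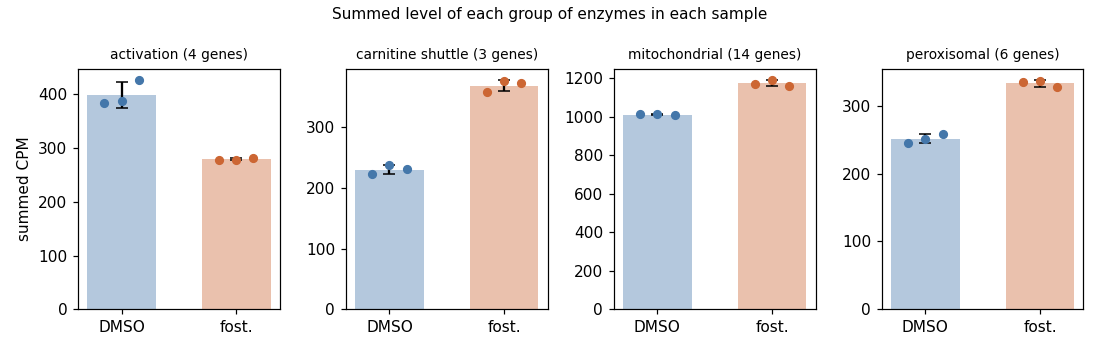
The y axis gives the summed CPM of the genes of each group in each sample (points), with the mean (bar) ± SD over 3 samples, DMSO in blue and fostamatinib in orange. The 3 groups of oxidation genes are higher in every fostamatinib sample than in any DMSO sample, and the acyl-CoA synthetases lower.

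Both ketone body genes of the list passed the test, in opposite directions, against 47.8% of all genes in either direction. ACAT1, the mitochondrial thiolase that acts in the synthesis and use of ketone bodies, was at 6.20, 6.24 and 6.17 log2 CPM with DMSO and at 5.97, 6.0 and 6.09 with fostamatinib. It fell by 0.19 (limma: SE 0.053, adjusted p = 0.00358). BDH1, which interconverts the main ketone bodies, had 0, 0 and 5 reads with DMSO and 2, 8 and 8 with fostamatinib. Its groups overlapped, and its log2 fold change of 2.43 (limma: SE 0.88, adjusted p = 0.0216) rests on these few reads. The call was lost when the mean-variance trend was left out (adjusted p = 0.144, limma) and without DMSO replicate 1 or 2 or fostamatinib replicate 2 or 3 (adjusted p = 0.073 to 0.132, limma). Without DMSO replicate 3, the sample with 5 reads, the log2 fold change of BDH1 was 3.58, without fostamatinib replicate 1 it was 3.02, and with 2 reads added to each count it was 1.37.

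Of the other enzymes of ketone body metabolism, BDH2, a cytosolic dehydrogenase, rose by 0.60 and ACAT2, the cytosolic thiolase, had a log2 fold change of -0.20. OXCT1, which allows cells to use ketone bodies and is low in liver, had 11, 10 and 13 reads with DMSO and 5, 6 and 4 with fostamatinib, and missed the threshold (adjusted p = 0.0517, limma).

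**Figure D4:**
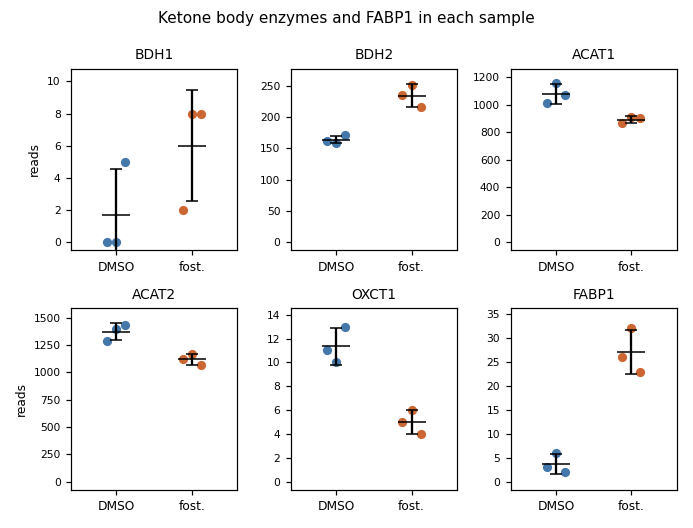
Each panel shows the reads of 1 gene in each sample, the 3 DMSO samples in blue and the 3 fostamatinib samples in orange, with the mean ± SD. The BDH1 samples of the groups overlap between 2 and 5 reads; the lower error bar of BDH1 with DMSO runs below the axis, and FABP1 is shown for its low reads.

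ANGPTL4, a secreted inhibitor of lipoprotein lipase that PPARA induces and that is also known as a hypoxia-induced gene, fell. It was at 3.08, 3.27 and 3.22 log2 CPM with DMSO and at 2.84, 2.37 and 2.07 with fostamatinib. The fostamatinib samples were spread more widely but all lay below the DMSO samples, with a log2 fold change of -0.77 (limma: SE 0.15, adjusted p = 6.11e-05).

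Of 20 further genes listed as PPARA targets, 14 were measured, of which 8 rose, 3 fell and 3 did not pass the test. The shares were 57.1% higher and 21.4% lower, against 23.3% and 24.5% of all genes. PDK4, the kinase that turns off pyruvate dehydrogenase when fat is burned, had 33, 30 and 38 reads with DMSO and 145, 179 and 149 with fostamatinib, a log2 fold change of 2.3 (SE 0.16). The lipid droplet proteins CIDEB and CIDEC rose by 2.14 and 1.71 on the log2 scale (SEs 0.081 and 0.17). ACOT12, an acetyl-CoA hydrolase, rose by 2.17 (SE 0.44) from 2, 5 and 6 reads to 19, 13 and 25, and FABP3 rose by 1.24. Among the genes that fell, HILPDA, a lipid droplet protein also known as hypoxia-induced, had the largest change, -0.93 on the log2 scale (SE 0.047).

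The 71 measured genes of the pathway outside the list of 36 counted 36 higher and 14 lower, and their median log2 fold change was 0.29. The shares were 50.7% and 19.7%, against 23.3% and 24.5% of all genes. These genes, too, were chosen with earlier results of these data known. Of 19 other peroxisomal genes, 10 rose and 3 fell; catalase (CAT) rose by 0.70 on the log2 scale and the fatty acid transporter ABCD3 by 0.55, while the import receptor PEX7 had a log2 fold change of -0.74. Of 13 other mitochondrial genes, 7 rose and 2 fell. The shares higher and lower were 52.6% and 15.8% for the other peroxisomal genes and 53.8% and 15.4% for the other mitochondrial genes. The fatty acid transport proteins SLC27A2 and SLC27A5 had log2 fold changes of -1.23 and -1.05, from means of 19.3 and 14.3 reads to 7.67 and 6.33. The call on SLC27A5 was lost without the trend (adjusted p = 0.0507, limma) and without DMSO replicate 1, DMSO replicate 3 or fostamatinib replicate 1 (adjusted p = 0.167, 0.0702 and 0.137, limma).

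Compared per kilobase of merged exons in the DMSO samples, ECHS1 had the highest level of the 36 genes, 87.4 CPM per kilobase, followed by HADHA at 43.0, PLIN2 at 37.5, ACADVL at 31.3 and HADHB at 26.5. CPT1A was at 26.2 and rose to 43.0 with fostamatinib, and CREB3L3 went from 20.1 to 59.9. The lowest were BDH1, CD36, ACADL and FABP1, each under 0.2. The merged exons of the annotation include rarely used ones and run up to 24.9 kilobases (HSD17B4), so that the levels of such genes are understated.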

How the data were processed

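RNA from Huh7-R cells (DMSO, n = 3; fostamatinib, n = 3) was sequenced from poly(A)-selected directional libraries. HISAT (alignment to hg19) and featureCounts (gene counts, GENCODE v22) were used by the authors, who then removed genes with low counts and scaled libraries by TMM. Versions of these tools and the use of strand are not given in the sources used here. The deposited values are log2 CPM (reads scaled to a common library size), made by the authors with 0.5 added to each count. Every value gave a whole read (within 0.05), so that reads per gene were recovered and are printed where counts are low. Intervals on reads cover counting error only.

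The files hold 16311 rows each, 6 of them duplicates, and 16305 genes were tested. The log2 values were compared with limma 3.58.1 (R 4.3.3), the package the study used for its linear model. The mean-variance trend (eBayes), the absence of covariates and the adjustment were chosen here: Benjamini-Hochberg over all genes and a threshold of 0.05. The script was tested on simulated data. Coordinates and exon lengths were taken from GENCODE v44 lifted to GRCh37, and promoters from RefSeq (GRCh38.p14; 32 of the 37 symbols matched). Reads were summed per kilobase of merged exons to compare levels between genes.

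The list and the other gene lists were chosen with earlier results of these data known. Every measured gene of the list is named; of the other pathway genes, those with an adjusted p-value under 0.05 and a log2 change of at least 1, the ketone body enzymes and the malonyl-CoA genes are named, apart from some that are not reported here. RXRA, PPARD, PPARG, CRAT, CROT, CPT1B, CPT1C, SLC22A5, HILPDA, CAT, ABCD3 and PEX7 were named after their values were seen. The alternatives were a fit with no trend, limma-voom on the recovered reads, other scalings, 2 added reads, stricter filters, a replicate block and leaving out each sample.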

Additional observations from a re-analysis of the deposited data

How the results depend on the processing

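Over the alternatives run, 20 to 23 genes of the list were higher and 5 lower. All 36 were tested in each, except that 32 remained when each sample had to hold at least 10 reads and 31 when the mean had to reach 50 reads (21 higher and 5 lower in both). The lowest count of 20 came without the mean-variance trend and without fostamatinib replicate 2. The very small adjusted p-values printed above depend on this trend. Without it, that of CPT1A was 4.98e-04 instead of 4.32e-17, and that of SLC25A20 was 3.27e-04 instead of 3.53e-16 (limma). Leaving out 1 sample at a time gave 20 to 22 higher and 5 lower. For the other pathway genes it gave 33 to 36 higher and 11 to 13 lower, and for all genes 3306 to 3676 higher and 3634 to 3804 lower. Scaling moved the median of all genes to 0.005 (RLE) or -0.01 (library size) on the log2 scale. Of the genes that had not passed the test, some changed sign when a sample was left out: HADH was at -0.04 and PEX11A at -0.01 without DMSO replicate 1, PLIN2 at 0.0 without DMSO replicate 2, ACOX2 at -0.06 without DMSO replicate 3, ACADL at 0.11 without fostamatinib replicate 1, ACOX2 at -0.04 and PEX11A at -0.19 without fostamatinib replicate 2, and PLIN2 at 0.02 without fostamatinib replicate 3. OXCT1 passed the threshold without the trend, with library size alone and with 2 added reads (adjusted p = 0.00576, 0.049 and 0.0453, limma). Over all samples left out, HADH ran from -0.04 to 0.09, ACOX2 from -0.06 to 0.21, ACADL from -0.75 to 0.11, PEX11A from -0.19 to 0.15 and PLIN2 from -0.04 to 0.02. The causes were not tested.

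Samples with the same replicate number did not deviate together (correlations 0.036, -0.021 and 0.037), and nothing in the labels says that the numbers pair them. With the replicate block, 23 of the 36 genes were higher and 5 lower, 37 and 14 of the other pathway genes, and 3879 and 4098 of all genes. A run without any filter was not possible, since the values were filtered before deposit. Genes under about 10 reads per sample (BDH1, CD36, ACADL) are limited by depth.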
